A study of Mus musculus with 4 samples.

Results

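The aryl hydrocarbon receptor (AHR) and genes of its pathway were followed in mouse embryonic fibroblasts (MEF cells), connective tissue cells cultured from mouse embryos. The set was defined by name and held 7 genes, which were Ahr, Arnt, Ahrr, Tiparp, Cyp1a1, Cyp1b1 and Aldh3a1, of 47937 genes in the count table. All 7 had a row in the table, and 5 passed the filter on low counts, as did 16240 genes in all. Total RNA was sequenced from untreated MEF cells, labelled wild-type, and from cells kept for 24 h in 50 µM genistein, with 2 libraries per group. Genistein is a plant isoflavone, a member of the flavonoids. The labels of the treated libraries give "Genistein treated" in place of a genotype, and they name no vehicle for the untreated cells, whereas the methods of the study describe genistein dissolved in DMSO and, for other assays, untreated cells given DMSO. They do not say whether the libraries of a group came from separate cultures, so that the p-values measure the spread between these libraries, which may be technical.

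AHR is a transcription factor that waits in the cytosol in a complex with HSP90 chaperones. When it binds a ligand, such as dioxins, plant flavonoids or tryptophan metabolites, it moves to the nucleus, pairs with its partner ARNT and binds DNA at the core motif GCGTG, known as the xenobiotic response element. Its targets include enzymes that oxidize foreign compounds, among them CYP1A1, CYP1B1 and ALDH3A1, and its own inhibitors AHRR and TIPARP. Induction of CYP1A1 is the usual readout of AHR activation in liver, whereas CYP1B1 is known as the main CYP1 enzyme of mesenchymal cells.

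The core motif was looked up in RefSeq promoters on GRCm38.p6, each from 250 bases before to 50 bases after a gene's start. Of the 7 genes, 5 had an entry, and Ahr and Aldh3a1 had none. Each of the 5 promoters held the core motif on at least 1 strand, as did 32.4% of the 32851 promoters in the table. The Ahrr promoter held it 3 times and each of the others held it once. G or C made up from 54% (Cyp1a1) to 73.7% (Tiparp) of the bases in these 5 promoters. No share was computed for promoters of like composition, so that the comparison with 32.4% does not show an enrichment. Bases farther from the start were not searched. The extended form TNGCGTG, which contains the core, was present in 5.07% of all promoters and among the 5 only in that of Ahrr, at its copy closest to the start. The stretches around the motif are shown as matches to the letters of the core alone, and none is given as a known binding site of the receptor. They read 5′ to 3′ on the strand of the gene, and capitals mark the core motif, which appears as CACGC where it lies on the opposite strand.
Cyp1b1 (chr17:79715123-79715147, minus strand, 76 bases before the start): tcccgcccctCACGCcccaccccct
Tiparp (chr3:65528267-65528291, plus strand, 170 bases before the start): ccgtccggagCACGCgcacgggagg
Arnt (chr3:95434351-95434375, plus strand, 29 bases before the start): atagtttgggGCGTGtcttctgccc
Cyp1a1 (chr9:57697549-57697573, plus strand, 54 bases before the start): agataaggagGCGTGgccaacagac
Ahrr, farthest copy (chr13:74292424-74292448, minus strand, 107 bases before the start): ttgaaagggcGCGTGgcaggcaggg
Ahrr, middle copy (chr13:74292399-74292423, minus strand, 82 bases before the start): acaaggatgtGCGTGcgccctctgc
Ahrr, closest copy (chr13:74292344-74292368, minus strand, 27 bases before the start): ggggcggctcGCGTGctggggtggg
The Cyp1a1 stretch lies in an intron of a longer GENCODE transcript of Cyp1a1, the Tiparp stretch in an exon of the opposite-strand pseudogene 4931440P22Rik, and the others before the gene and in no annotated gene. A match is a description of these letters, and occupancy of the motif was not measured.

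In genistein-exposed cells the receptor gene was lower, its partner gene was higher, and the target genes spread from a few counts to large increases. Aldh3a1 was 4.0-fold and Cyp1b1 1.70-fold higher. Tiparp rose by less, 1.27-fold. Cyp1a1, in contrast, had 1 count over the 4 libraries, and Ahrr had 6 counts, all in genistein libraries. The values below are normalized read counts, that is, read counts scaled so that all libraries have the same effective size, the mean of the 4. Library totals ran from 28591958 to 31464284 counts over genes and repeats. Fold changes and adjusted p-values come from the quasi-likelihood test of edgeR, with p-values adjusted by the Benjamini-Hochberg method over 17358 genes and repeats, and the errors of log2 fold changes are standard errors.

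**Figure D1:**
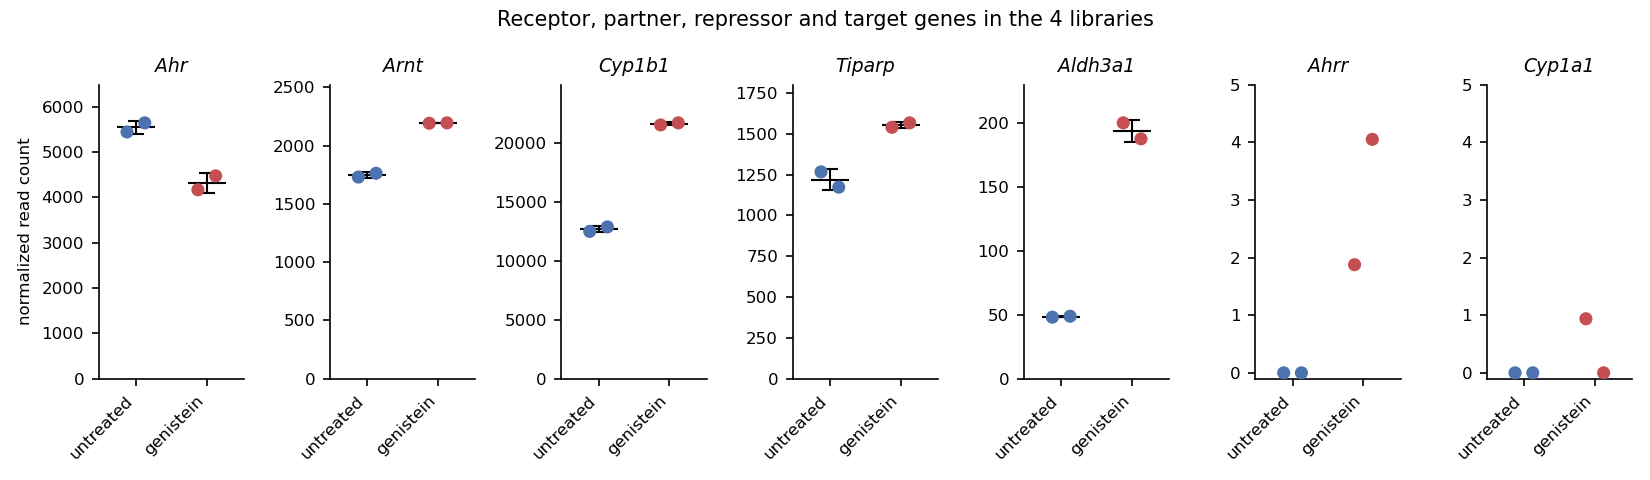
Normalized read counts (vertical axes, each starting at or just under 0 with its own range) of the 7 genes in untreated (blue) and genistein (red) libraries; each point is 1 library, and horizontal bars with whiskers give the mean and SD (n = 2) of the 5 tested genes. The genistein points lie below the untreated points for Ahr and above them for Arnt, Cyp1b1, Tiparp and Aldh3a1, while Ahrr and Cyp1a1 stay under 5.

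The receptor and its partner moved in opposite directions. Ahr (ENSMUSG00000019256, chromosome 12, 35497974 to 35535038, minus strand) had 5439 and 5641 normalized counts without genistein and 4165 and 4472 with it. Both genistein libraries were below both untreated libraries. The mean fell from 5540 ± 142 to 4319 ± 217 (SD, n = 2), or -0.36 ± 0.04 on the log2 scale (edgeR adjusted p = 2.34e-07). In bulk RNA, fewer cells that carry a transcript and less of it per cell cannot be told apart. Arnt (ENSMUSG00000015522, chromosome 3, 95434388 to 95497240, plus strand), which encodes the obligate DNA-binding partner of AHR and of the hypoxia-inducible factors, had 1730 and 1763 normalized counts without genistein and 2192 and 2195 with it. Its groups did not overlap either. The mean rose from 1746 ± 23.0 to 2194 ± 2.19 (SD, n = 2), or 0.33 ± 0.04 on the log2 scale (edgeR adjusted p = 1.27e-06). The ratio of Ahr to Arnt counts per kilobase of exon, which does not depend on how libraries are scaled, was 4.08 and 4.16 in untreated cells and 2.47 and 2.65 in genistein-exposed cells. Its mean in genistein-exposed cells was thus 0.621 times that of untreated cells. With 2 libraries per group an exact two-sided permutation test of such a ratio cannot give a p-value under 0.333, so that no test is given for ratios.

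Among the oxidizing enzymes, Cyp1b1 was read many times in every library and Cyp1a1 hardly at all. Cyp1b1 (ENSMUSG00000024087, chromosome 17, 79701537 to 79715061, minus strand), a cytochrome P450 that oxidizes polycyclic hydrocarbons and estradiol, gave 12485 and 12863 normalized counts in untreated and 21511 and 21686 in genistein-exposed cells. The groups were far apart compared with the spread inside them. Its mean rose from 12674 ± 267 to 21599 ± 124 (SD, n = 2), or 0.77 ± 0.05 on the log2 scale (edgeR adjusted p = 2.92e-10). Among all tested genes 14.8% had a larger log2 fold change. Set against Ahr, as a ratio of counts per kilobase inside each library, Cyp1b1 went from 2.42 and 2.41 in untreated cells to 5.45 and 5.12 in genistein-exposed cells, 2.19 times as high on average.

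Cyp1a1 (ENSMUSG00000032315, chromosome 9, 57687928 to 57703824, plus strand), the cytochrome P450 that is induced most strongly by AHR ligands in many tissues, had 0 and 0 raw counts without genistein and 1 and 0 with it. A count of 0 allows up to 3 counts, or 0.0940 to 0.106 counts per 1000000 of effective library size (CPM) in these libraries, and these limits cover counting error only, since PCR copies are not independent molecules. Cyp1b1 lay between 417 and 725 CPM in the same libraries. A change of Cyp1a1 was not detectable at this depth, and no fold change is given. Cyp1a2, the other member of this subfamily, had no count in the 4 libraries.

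Aldh3a1 (ENSMUSG00000019102, chromosome 11, 61207537 to 61218421, plus strand), an aldehyde dehydrogenase that clears aromatic and lipid-derived aldehydes, had 48 and 46 raw counts without genistein and 213 and 185 with it. The normalized counts were 47.9 and 48.7 against 199.7 and 187, so that both genistein libraries stood well above both untreated ones. Its mean rose from 48.3 ± 0.530 to 193 ± 8.82 (SD, n = 2), or 2.00 ± 0.14 on the log2 scale (edgeR adjusted p = 2.87e-09). Only 1.91% of all tested genes had a larger log2 fold change. Aldh3a1 is abundant in the corneal epithelium. The summed normalized counts of 8 epithelial markers were 1218 and 1179 without genistein and 282 and 268 with it. All 4 tested markers were lower, compared with 38.2% of all tested genes that were lower by the adjusted p-value. Krt18 had raw counts of 49 and 42 without genistein and 9 and 5 with it. It passed the low-count filter only by its untreated counts. Epcam, Krt5 and Esrp1 had no count in these 4 libraries. The part of these markers in the change of Aldh3a1 was not tested.

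The inhibitors of the receptor behaved unequally in level. Tiparp (ENSMUSG00000034640, chromosome 3, 65528410 to 65555518, plus strand) encodes a mono-ADP-ribosyl transferase that modifies AHR and promotes its loss, and it gave 1267 and 1173 normalized counts in untreated and 1540 and 1567 in genistein-exposed cells. The groups did not overlap, and the untreated pair was the wider of the 2 pairs. The mean rose from 1220 ± 66.2 to 1553 ± 19.2 (SD, n = 2), or 0.35 ± 0.05 on the log2 scale (edgeR adjusted p = 1.05e-05). Ahrr (ENSMUSG00000021575, chromosome 13, 74211118 to 74292331, minus strand), which encodes a repressor that competes with AHR for ARNT, had 0 and 0 raw counts without genistein and 2 and 4 with it. These lie at or near the limit of 3 counts that a count of 0 allows, so that no fold change is given. Ahrr did not pass the filter on low counts and for that reason was not among the tested genes.

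Of the 5 tested genes, 4 were higher and 1 was lower at an adjusted p-value under 0.05, and the groups of each did not overlap. These shares have to be read against the whole table, in which 33.5% of the 16240 tested genes were higher and 38.2% were lower by the same rule. Groups that did not overlap were found for 85.3% of all tested genes. Under the thresholds of the study, which also ask for more than a 1 log2 unit change and for a mean normalized count over 100, Aldh3a1 was the 1 gene of the set that passed, compared with 3.92% of all tested genes that passed as higher. The mean normalized count of Aldh3a1, 121, lay close to that limit, and without genistein 1 or without genistein 2 it dropped to 92.6 or 99.2 and the gene no longer passed, at log2 fold changes of 1.96 and 2.05. The median log2 fold change was 0.35 over the 5 tested genes and -0.03 over all tested genes.

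**Figure D2:**
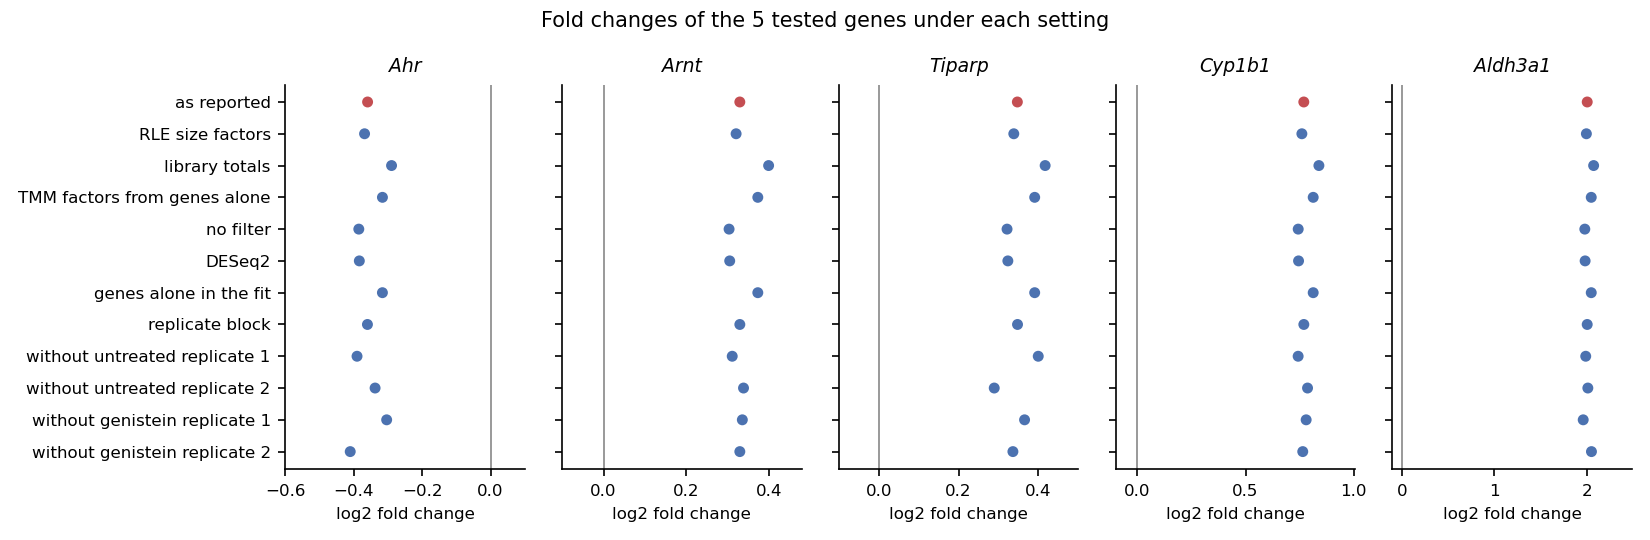
Log2 fold change (horizontal axes, genistein over untreated, with separate ranges) of the 5 tested genes as reported (red) and under 11 other settings (blue), 1 setting per line. The values stay on one side of 0 for each gene, from -0.41 to -0.29 for Ahr, from 0.30 to 0.40 for Arnt, from 0.29 to 0.42 for Tiparp, from 0.74 to 0.84 for Cyp1b1 and from 1.96 to 2.07 for Aldh3a1.

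Levels were compared between the genes as normalized counts per kilobase of annotated exon. In untreated cells Cyp1b1 was highest at 2170 ± 45.8, followed by Ahr at 899 ± 23.1, Tiparp at 279.9 ± 15.2, Arnt at 218 ± 2.87 and Aldh3a1 at 24.9 ± 0.273 (SD, n = 2). Each neighbour in this order was separated by more than the spread between libraries, but Tiparp and Arnt changed places when the length of the longest transcript was used in place of all exons. In genistein-exposed cells the order was the same, with 3698 ± 21.2 for Cyp1b1, 701 ± 35.2 for Ahr, 356 ± 4.41 for Tiparp, 274 ± 0.273 for Arnt and 99.6 ± 4.54 for Aldh3a1 (SD, n = 2). Among 16157 tested genes with an annotated length, 4.32% had a higher untreated level per kilobase than Cyp1b1, and 11.4% a higher one than Ahr. For Aldh3a1 this share was 79.5%.

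**Figure D3:**
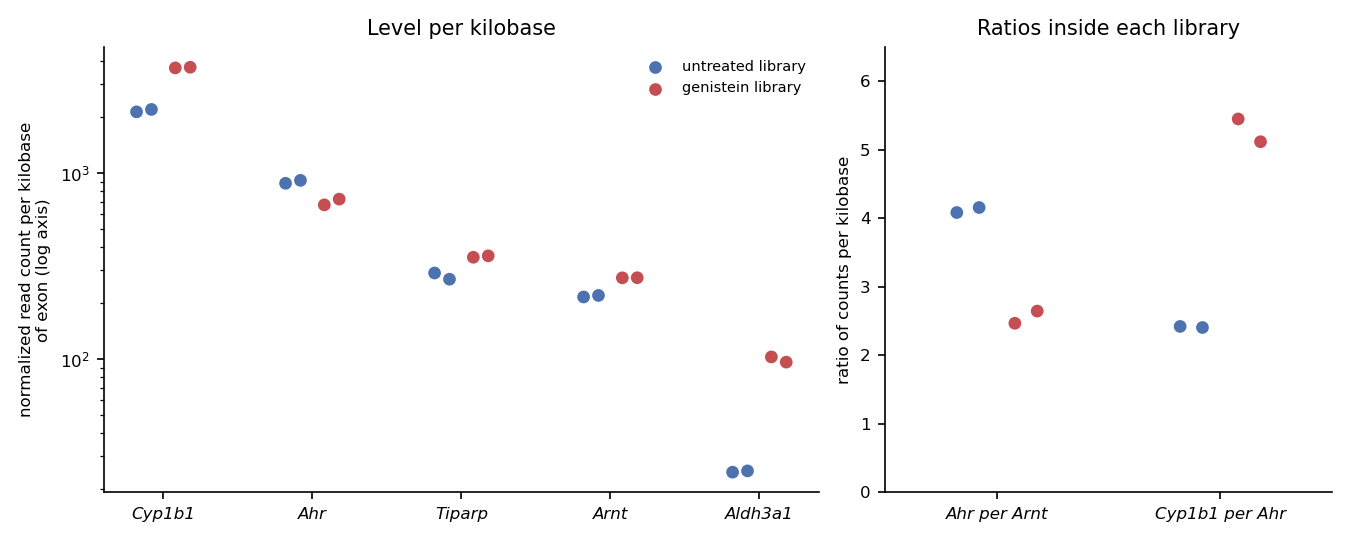
Left, normalized read count per kilobase of exon (vertical log axis) of the 5 tested genes in untreated (blue) and genistein (red) libraries; right, the ratios of Ahr to Arnt and of Cyp1b1 to Ahr counts per kilobase inside each library on an axis from 0. Each point is 1 library. The Ahr to Arnt ratio falls from about 4.1 to about 2.6, and the Cyp1b1 to Ahr ratio is more than 5 in both genistein libraries.

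Transcripts of proteins that hold the receptor in the cytosol or act with it in protein breakdown were lower. The list reported here held 6 genes, which were the chaperones Hsp90aa1 and Hsp90ab1, the co-chaperone Ptges3 (known as p23), and the ubiquitin ligase components Stub1, Cul4b and Ddb1. All 6 were lower at an adjusted p-value under 0.05 (edgeR), with a median log2 fold change of -0.64, compared with 38.2% of all tested genes that were lower by this rule. Ptges3 fell from 10265 ± 328 to 4252 ± 185 normalized counts (SD, n = 2), or -1.27 ± 0.04 on the log2 scale (edgeR adjusted p = 1.88e-13). It was the 1 gene of the list past all thresholds as lower, compared with 4.16% of all tested genes. Hsp90aa1 and Hsp90ab1 had log2 fold changes of -0.86 ± 0.05 and -0.84 ± 0.04.

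The relatives of AHR and ARNT, which share their helix-loop-helix and PAS domains, gave a mixed picture. Of 15 listed names, 2 are newer names of Arntl and Arntl2 and were not matched, and 8 of the 13 genes in the table were tested. Of these, 4 were higher and 4 did not pass the test, with a median log2 fold change of 0.49, compared with 33.5% of all tested genes that were higher and 38.2% that were lower. Epas1, which encodes the hypoxia-inducible factor HIF-2α, rose from 22.0 ± 7.09 to 143 ± 10.5 normalized counts (SD, n = 2), or 2.69 ± 0.20 on the log2 scale (edgeR adjusted p = 4.53e-09). Npas3 had 5 and 9 raw counts without genistein and 45 and 36 with it, a log2 fold change of 2.43 ± 0.34. It passed the low-count filter only by its genistein counts, so that it adds no support to the count of higher genes. Arntl2, a partner of the circadian factor CLOCK, had a log2 fold change of 0.61 ± 0.09. Hif1a, which encodes another partner of ARNT, differed by 0.00 ± 0.03 on the log2 scale (adjusted p = 0.925, edgeR).

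Other genes known to respond to AHR in various tissues were compared next. Of 19 listed genes 14 were tested, and 6 were higher, 4 were lower and 4 did not pass, with a median log2 fold change of 0.26. Among all tested genes 33.5% were higher and 38.2% lower, so that these counts by the adjusted p-value alone lay near the background. The higher genes with the largest changes encode enzymes of drug and purine metabolism. Xdh, xanthine dehydrogenase, rose from 544 ± 64.2 to 2419 ± 52.2 normalized counts (SD, n = 2), or 2.15 ± 0.06 on the log2 scale (edgeR adjusted p = 3.25e-14). Ugt1a6a and Ugt1a6b, which encode UDP-glucuronosyltransferases that attach glucuronic acid to phenols, had log2 fold changes of 1.71 ± 0.06 and 1.67 ± 0.04. Both belong to a locus with shared exons, so that the share of each is uncertain. Nqo1, the quinone reductase of the classical AHR gene battery, was chosen after its values were seen and rose from 925 ± 19.1 to 2928 ± 23.6 normalized counts (SD, n = 2), with or 1.66 ± 0.04 on the log2 scale (edgeR adjusted p = 7.92e-15). These were the 4 genes of the list past all thresholds as higher, of 14 tested, compared with 3.92% of all tested genes. On the lower side, Serpinb2, a plasminogen activator inhibitor, had a log2 fold change of -1.71 ± 0.29 at raw counts of 61 and 39 against 20 and 12. The log2 fold changes of Cyp2s1, a cytochrome P450, and Hes1, a Notch target, were -0.57 ± 0.13 and -0.23 ± 0.06.

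Nqo1 and the Ugt1a6 genes are also known targets of NRF2, the factor of the oxidative stress response, and a list of 11 such targets was set beside them. All 11 were tested, 9 were higher and 2 were lower, with a median log2 fold change of 0.42. By the same rule 33.5% of all tested genes were higher and 38.2% were lower. Past all thresholds as higher were 4 of the 11, compared with 3.92% of all tested genes. Ephx1, microsomal epoxide hydrolase, rose from 1936 ± 49.2 to 9097 ± 19.9 normalized counts (SD, n = 2), or 2.23 ± 0.03 on the log2 scale (edgeR adjusted p = 1.64e-17). Hmox1, heme oxygenase, and Gstm1, a glutathione transferase, had log2 fold changes of 1.45 ± 0.04 and 1.10 ± 0.05. Gsr, glutathione reductase, had a log2 fold change of -0.54 ± 0.04, and G6pdx, which makes NADPH, one of -0.12 ± 0.03. Which factor acted on a gene that responds to both was not tested.

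The list of coregulators reported here held 10 genes, all tested, and 6 were higher, 2 were lower and 2 did not pass, with a median log2 fold change of 0.26. Across all tested genes the shares were 33.5% higher and 38.2% lower. Nrip1, which encodes a corepressor of nuclear receptors, rose from 878 ± 43.3 to 1958 ± 49.1 normalized counts (SD, n = 2), or 1.16 ± 0.05 on the log2 scale (edgeR adjusted p = 5.52e-12). Among coactivator genes, Ncoa1 had a log2 fold change of 0.78 ± 0.08, Kat2b, a histone acetyltransferase, of 0.70 ± 0.04, Med1 of -0.23 ± 0.04 and Smarca4, the ATPase of a chromatin remodelling complex, of -0.31 ± 0.04.

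The families of the targets were compared to set their changes beside those of related enzymes. Of 15 other cytochrome P450 genes of families 2 to 4 only 6 passed the low-count filter, and 5 of them were higher, with a median log2 fold change of 1.28, compared with 33.5% of all tested genes that were higher. Their levels were low, and 7 of the 15 had no count in the 4 libraries. Cyp2u1 had raw counts of 8 and 7 without genistein and 23 and 20 with it. For Cyp2j6 the raw counts were 13 and 9 against 23 and 28. Both passed the filter only by their genistein counts. Their entry into the test depended on their increase, and they add no support to the count of higher genes. Cyp4f13 had 56 and 57 raw counts without genistein and 249 and 196 with it, or 1.89 ± 0.15 on the log2 scale (edgeR adjusted p = 6.23e-09). The log2 fold change of Cyp2c55 was 1.83 ± 0.19 and that of Cyp2u1 was 1.43 ± 0.37.

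Among 18 other aldehyde dehydrogenase genes 16 were tested, and 9 were higher, 3 were lower and 4 did not pass, with a median log2 fold change of 0.43. Over all tested genes 33.5% were higher and 38.2% were lower. Aldh1l1, a folate enzyme, had the largest increase of the list. Its raw counts were 2 and 0 without genistein and 38 and 42 with it, so that the size of its change is imprecise. Aldh1a3, with raw counts of 4 and 3 against 15 and 15, had a log2 fold change of 1.98 ± 0.49. Aldh1l1 and Aldh1a3 passed the low-count filter only by their genistein counts. Being tested thus depended on their increase, and both add no support to the count of higher genes. Aldh4a1, which acts in proline breakdown, had a log2 fold change of 1.58 ± 0.07. The lower genes were Aldh9a1, Aldh16a1 and Aldh18a1, at -0.78 ± 0.05, -0.51 ± 0.06 and -0.36 ± 0.03 on the log2 scale. The increase of Aldh3a1, at 2.00, was exceeded on this list by that of Aldh1l1 alone, and differences between genes were not tested.

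Tiparp belongs to the PARP family, and its 11 listed relatives were all tested. Of these, 6 were higher, 2 were lower and 3 did not pass, with a median log2 fold change of 0.30, close to the 0.35 of Tiparp. For comparison, 33.5% of all tested genes were higher and 38.2% were lower. Parp10, Parp14 and Parp4 had log2 fold changes of 1.55 ± 0.07, 1.24 ± 0.18 and 1.03 ± 0.06. Parp12 and Zc3hav1, which are known for antiviral functions, had log2 fold changes of -0.38 ± 0.07 and -0.12 ± 0.03.

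Over the 8 lists together, 103 of the 105 listed names matched a gene, and 82 of these genes were tested. At an adjusted p-value under 0.05 (edgeR) 45 were higher and 19 were lower, and the median log2 fold change was 0.41. Npas3, Cyp2j6, Cyp2u1, Aldh1a3 and Aldh1l1, among the higher genes, passed the low-count filter only by their genistein counts. The shares over all tested genes were 33.5% higher and 38.2% lower, with a median of -0.03. With scaling by library totals alone the counts were 51 higher and 17 lower, and with DESeq2 they were 41 higher and 19 lower.

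**Figure D4:**
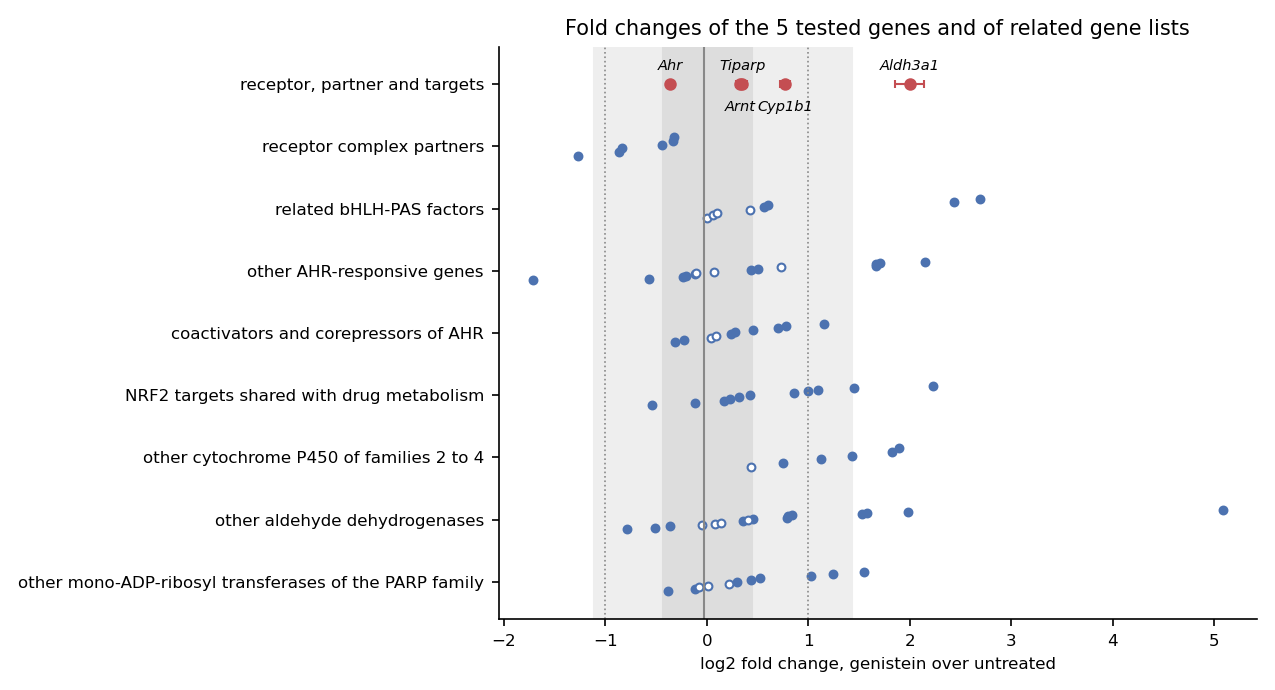
Log2 fold change (horizontal axis, genistein over untreated) of the 5 tested genes of the set (red, with standard errors) and of the tested genes of 8 related lists (filled blue, adjusted p-value under 0.05; open, not). Dark and light grey bands hold the middle 50% and 90% of all tested genes, the solid line is their median of -0.03 and dotted lines mark -1 and 1; Aldh3a1 lies to the right of both bands, and the 6 receptor complex partners lie left of the median.

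Genes with the most similar profiles were found by the Euclidean distance between log2 CPM values over the 4 libraries, each gene centred on its own mean, among 10274 genes. The closest to Ahr were Mdp1, Txndc15 and Zscan12, at distances of 0.0126, 0.0173 and 0.0186. Tec, Gcnt2 and Pdrg1 were closest to Tiparp, at 0.00074, 0.0125 and 0.0206. For Cyp1b1 they were Lmbr1, Kif21b and Wdr44, at 0.0111, 0.0147 and 0.0154. With 2 groups of 2 libraries, such a distance says only that the fold changes and the order inside each pair were alike.

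Cell identity was checked with marker lists. Of 10 fibroblast markers 8 were tested, and 7 of them were lower and 1 was higher, with a median log2 fold change of -0.28. These counts stand beside 38.2% of all tested genes that were lower and 33.5% that were higher by the same rule. The lower markers included Pdgfrb at -0.73 ± 0.04 and the collagen gene Col1a2 at -0.50 ± 0.04 on the log2 scale, and the higher one was Fn1 at 0.20 ± 0.04, which had the highest counts of the list. The summed normalized counts of the list ran from 426180 to 438304 in untreated and from 398409 to 408230 in genistein libraries. Thy1 had no count in these libraries, and Lum had at most 10 counts. The leukocyte list summed to between 149 and 156 in untreated and between 299 and 308 in genistein libraries, carried mainly by Cd68 and Cd14, while Adgre1 and Cd3e had no count and Ptprc at most 1. The endothelial list summed to between 24.97 and 30.7 in untreated and between 85.3 and 98.2 in genistein libraries, mainly from Kdr. Of 6 hepatocyte markers, Alb, Ttr, Serpina1a and Fgb had no count, and the list sum lay between 379 and 405 in untreated and between 264 and 286 in genistein libraries, nearly all from Apob. The part of these marker lists in the changes of Ahr, Arnt, Tiparp and Cyp1b1 was not tested.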

How the data were processed

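Libraries were prepared from total RNA with a stranded, rRNA-depleting kit and sequenced as paired ends. Trim Galore, STAR and TEtranscripts were used by the authors to trim reads, to align them to mm10 with multi-mapping reads retained, and to count them over GENCODE genes and over repeats. The deposited values are raw counts, and the strand option was not given in the sources used here. Ahr and Tiparp share 127 and 223 exon bases with opposite-strand genes, the latter with 4931440P22Rik at 6 to 12 counts per library.

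Genes and repeats were fitted together with edgeR 4.0.16 in R 4.3.3 (filterByExpr, TMM, glmQLFit, glmQLFTest). The 1 entry without a name, 0.00208% to 0.00314% of counts, was left out. The standard error is the log2 fold change divided by the square root of F. Symbols were matched for 47224 genes. Coordinates and lengths come from a later GENCODE release on GRCm38, the assembly of mm10. Profile distances used a pseudocount of 0.5. Replicates were not the same library, since their counts gave a chi-square of 4.53 and 10.1 per degree of freedom. The genes and lists were chosen with earlier results of these data known, and some listed genes are not reported here. Named were the 7 genes, up to 3 higher and 3 lower genes per list with the largest absolute log2 fold change at an adjusted p-value under 0.05, and the 3 closest profiles of Ahr, Tiparp and Cyp1b1. Nqo1, Hif1a and Cyp1a2 fall outside this rule and were named after their values were seen. Alternatives covered scaling, filter, DESeq2 1.42.0, thresholds, length, each library left out and a replicate block. The fit was tested on simulated data with known changes.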

Additional observations from a re-analysis of the deposited data

How the results depend on the processing

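The directions of Ahr, Arnt, Tiparp, Cyp1b1 and Aldh3a1 and their side of the adjusted p-value threshold were the same under 11 alternatives each, with the largest adjusted p-value, 0.000136, for Tiparp under DESeq2. The number of genes of the set past all thresholds, 1, depended on the thresholds by construction: it was 0 with a mean normalized count over 1000 and 5 with no fold change threshold, and from 0 to 1 when each library was left out, because the mean of Aldh3a1 dropped under 100 without either genistein library. By untreated level per kilobase, with the longest transcript as length, Arnt ranked 3 and Tiparp 4. With no filter on low counts Ahrr and Cyp1a1 could be fitted and had adjusted p-values of 0.072 and 0.559 (edgeR). Scaling moved the median log2 fold change of all genes from -0.03 to at most 0.04. With a replicate block the log2 fold change of Cyp1b1 was 0.77 and that of Tiparp 0.35, and no call of the set changed. Deviations of same-numbered libraries from their group means correlated at -0.03, which gives no sign of pairing. With 2 libraries per group this is a single value for both numbers, since the deviations inside a group mirror each other. When 1 library of a group was left out, the lone library was assumed to vary like the other group. Depth limits Cyp1a1 and Ahrr, which had 6 counts or fewer in all.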
